A study of Bos taurus with 15 samples.

Results

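The comparison described here set the endometrium of 5 Infertile heifers against that of 5 Sub-fertile heifers, which is 10 of the 15 libraries of a study of beef cattle (Bos taurus). The libraries were chosen by the fertility class in their labels alone, without use of any measured value. The other 5 libraries came from High-fertile heifers and are given only as a reference level. The protocol in the labels was the same for all 3 classes. Their estrus was synchronised with prostaglandin F, GnRH, a progesterone insert (CIDR) and estradiol with progesterone, a heifer not in estrus in time was also given GnRH and estradiol benzoate, and each then received an embryo produced in vivo, placed in the horn beside the corpus luteum. Which heifers had that extra treatment is not stated. On day 14 of pregnancy the uterus was flushed and a biopsy was taken with forceps near the greater curvature of that horn. The labels give no age and no breed, do not say how a heifer was put in a class, and do not say whether the flush recovered a conceptus. A library came from a single heifer, with no repeat library of the same heifer. SDs within a class therefore hold differences between animals together with those between biopsies and library preparations.

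The endometrium is the inner lining of the uterus, made of a luminal epithelium, glands that secrete into the lumen, a fibroblast stroma, vessels and immune cells. At this stage of bovine pregnancy the lining has been under progesterone since ovulation, and the epithelium loses its progesterone receptor while the genes that feed the elongating conceptus become active. The conceptus then begins to release interferon tau, which acts on the endometrium, induces antiviral genes there and keeps oxytocin receptors low. In a biopsy of mixed cells, fewer cells of a type and less RNA per cell cannot be told apart.

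Levels are given as CPM, that is, read counts scaled to library size and composition, and differences as log2 fold changes of Infertile over Sub-fertile with their standard error (SE). Libraries held 40061511 to 51009815 counts in the Infertile and 38017136 to 62858724 in the Sub-fertile class. The tissue carried its defining markers in each of the 10 libraries, with EPCAM of epithelium at 277 to 777 CPM, FOXA2 of glands at 15.3 to 54.8 CPM, and the stromal genes PDGFRA and HOXA10 at 135 to 488 and 48.5 to 181 CPM. Of the trophoblast genes looked for, PAG11, PAG12, TKDP1 and TKDP4 had no count, and PAG2, PAG8 and HAND1 had at most 6 counts in a library. Others were present: PTGFRN, TFAP2C, GATA3, ELF5 and CDX2 had 46887, 1357, 707, 425 and 34 counts over the Infertile libraries. Over the Sub-fertile libraries they had 46567, 991, 417, 136 and 51 counts. Whether the counts of these genes came from conceptus cells was not tested. Of the 6 trophoblast genes tested, 3 were higher in the Infertile class, and ELF5, which epithelia other than the conceptus also express, was at p under 0.05. Without Infertile replicate 2, 1 of the 6 was higher. The log2 fold change of ELF5 went from 1.60 to 0.72 without that library, no longer at p under 0.05. IFNT2, an interferon tau gene, had 166 counts over the Infertile and 196 over the Sub-fertile libraries. The libraries also fell into 3 sets by 372 pseudogenes and ribosomal RNA genes, whose origin the labels do not give. Infertile replicates 1 and 4 and Sub-fertile replicates 3 and 4 lay in a set of 8 with 4 High-fertile libraries, Infertile replicates 3 and 5 and Sub-fertile replicates 1, 2 and 5 in a set of 5, and Infertile replicate 2 with 1 High-fertile library in a set of 2.

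No gene passed an adjusted p of 0.05 between the classes. Of 19962 genes tested with edgeR's quasi-likelihood test, 0 (0%) passed, and the smallest adjusted p was 0.998, so that each difference of a named gene below stands at an adjusted p of at least this value. At an unadjusted p under 0.05 stood 525 genes (2.63%), of which 381 were higher (1.91%) and 144 lower (0.721%) in the Infertile heifers. With no difference between the classes a share of about 0.05 of all genes would be expected there, so 2.63% is no excess. The classes did not overlap in 41 genes (0.205%), 24 of them higher (0.12%) and 17 lower (0.0852%) in the Infertile class. This count was not set against a rate for classes drawn at random, and it is not given as an excess. Over all genes the median log2 fold change was 0.03, 54.7% of genes were above 0, and 758 genes (3.8%) differed by more than 1 log2 unit. DESeq2 passed 11 genes, the edgeR likelihood ratio test 8 and limma-voom 1. These were the immunoglobulin, secretory and epithelial genes described next, apart from HTR1A.

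The count depended on single libraries, and in differing directions. Infertile replicate 2 had the highest level of its class in 277 of the 381 higher genes (72.7%), against 26.6% of all genes tested, and at least 4 times the next library in 139 of them. It was the lowest of its class in 45 of the 144 lower genes (31.2%), against 27.4% of all genes. Without it 305 genes (1.53%) were at an unadjusted p under 0.05, 146 higher (0.731%) and 159 lower (0.797%), 0 passed the adjusted threshold, and 53% of all genes were above 0. Of the 525 genes 176 were among these 305, which is 33.5% of the first list and 57.7% of the second, and 174 of the 176 had the same sign. Leaving out Infertile replicate 5 or 3, or Sub-fertile replicate 3, moved the number further and upward, to 1001, 842 and 912 genes, with 0 past the adjusted threshold.

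**Figure D1:**
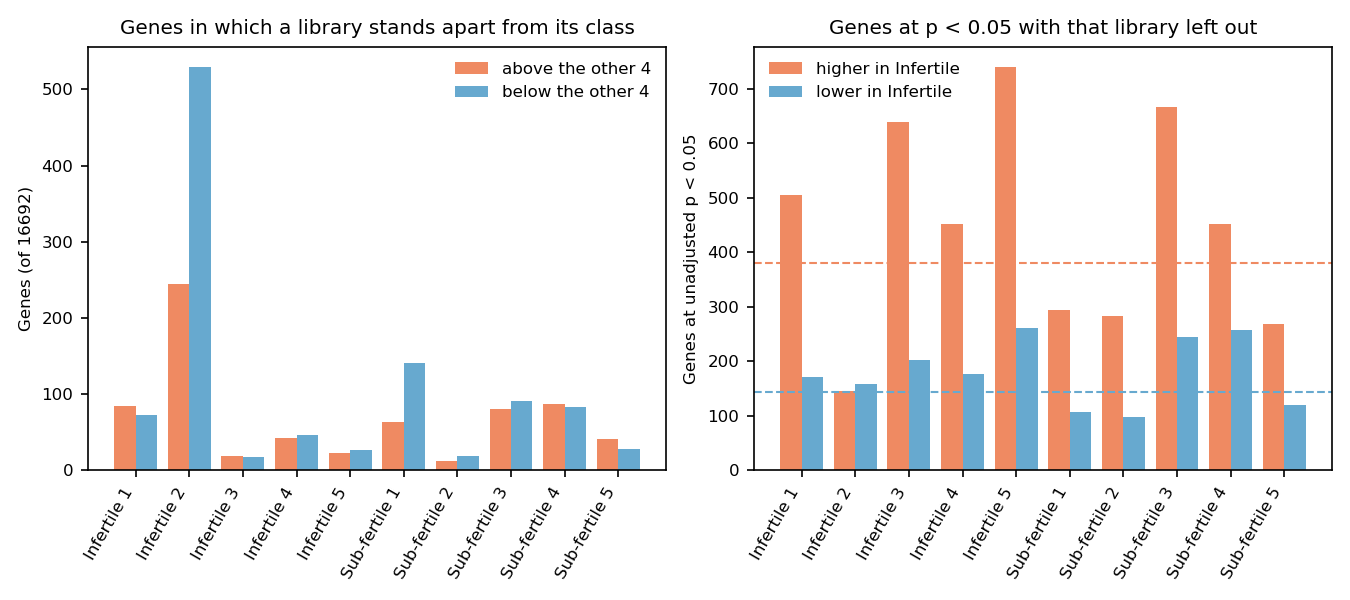
Left, the number of genes (of 16692 with a mean of at least 1 CPM) in which each library stands apart from the other 4 of its class, above or below them. Right, the number of genes at an unadjusted p under 0.05 when that library is left out, higher or lower in the Infertile class. Dashed lines are at the 381 and 144 genes of the fit with no library left out. Infertile replicate 2 stands apart in 774 genes, and the higher count is at its lowest, 146, without it.

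Transcripts of antibody genes were at higher levels in the Infertile than in the Sub-fertile endometrium, with Infertile replicate 5 in or near the Sub-fertile range throughout. IGLL1-2, whose symbol is that of a lambda-like immunoglobulin polypeptide, was at 65.1, 207, 131, 84.4 and 15.9 CPM in Infertile replicates 1 to 5 and at 17.0, 19.3, 14.8, 16.7 and 8.95 CPM in Sub-fertile replicates 1 to 5. Infertile replicate 5 alone lay inside the Sub-fertile range. The log2 fold change was 2.71 ± 0.60 (SE), and 2.27 without Infertile replicate 2. IGJ, the joining chain of secreted IgA and IgM, was at 18.9, 93.1, 241, 61.3 and 15.4 CPM in the Infertile and 16.6, 13.4, 7.87, 6.77 and 16.5 CPM in the Sub-fertile replicates. Its log2 fold change was 2.81 ± 0.78, and 1.95 without Infertile replicate 3, which held the most. POU2AF1, a coactivator of immunoglobulin genes in B cells, was at 0.168, 0.574, 0.861, 0.389 and 0.153 CPM against 0.209, 0.139, 0.0455, 0.0656 and 0.137 CPM, a log2 fold change of 1.85 ± 0.61. In all 3 genes Infertile replicates 2, 3 and 4 lay above every Sub-fertile library.

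Immunoglobulin genes that carry a LOC number lay outside the rule for naming genes, and their values were known when they were chosen. LOC524810, described as IgM, was at 26.9, 185, 293, 95.2 and 6.23 CPM in the Infertile and 4.96, 3.52, 2.96, 2.90 and 7.74 CPM in the Sub-fertile replicates, a log2 fold change of 4.78 ± 0.98. LOC100847119, a lambda constant region, was at 1.15 to 24.2 against 0.273 to 1.98 CPM (log2 fold change 3.41 ± 0.80). The heavy chain genes LOC100300806 and LOC444875 had log2 fold changes of 2.39 ± 0.58 and 2.40 ± 0.63. All 4 had overlapping classes, and reads of such near-identical genes may be split between copies. Within the set of 8 libraries IGLL1-2, IGJ and LOC524810 differed by 2.25, 2.46 and 4.39 log2 units, and within the set of 5 by 2.30, 3.07 and 4.81. The High-fertile means lay above both classes, with IGLL1-2 at 199 ± 131 CPM (SD, n = 5), IGJ at 122 ± 88.7 CPM and LOC524810 at 213 ± 167 CPM. Of 17 tested members of the B and plasma cell list 11 were higher and 6 lower, 2 of them (IGJ and POU2AF1) at p under 0.05, with a median of 0.32. CD79A and CD79B, through which the B cell receptor signals, differed by 0.89 and 1.19 log2 units, and by 0.75 and 1.28 without Infertile replicate 2, neither at p under 0.05. CD79A was at 0.204 to 0.511 against 0.0983 to 0.341 CPM, and its classes overlapped.

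Several of the genes that ranked first by p were at low levels in the Infertile and scarce or at 0 in the Sub-fertile libraries. MSMB, a secreted protein of mucosal glands, was at 0.419, 0.298, 0.272, 0.448 and 0.358 CPM in the Infertile replicates, 83 counts in all, and had no count in any Sub-fertile library. Against a floor of 3 counts over the Sub-fertile class that is at least 27.8-fold higher. TAP, the tracheal antimicrobial peptide, a beta-defensin, was at 0.251, 11.04, 0.181, 0.273 and 0.996 CPM against 0 in each Sub-fertile library, at least 198-fold higher on the same floor, with most of its 592 counts from Infertile replicate 2. PLA2G2F, a secreted phospholipase A2, was at 4.31, 10.6, 3.67, 11.5 and 3.06 CPM against 0.313, 0.926, 0.228, 0.0983 and 0 CPM (log2 fold change 4.41 ± 1.13). In these 3 genes every Infertile library lay above every Sub-fertile one, and in PLA2G2F also at a distance from them. The High-fertile means were 0.0238, 0.198 and 1.92 CPM, so that for each the Infertile class had the highest mean of the 3 classes. In MSMB the highest High-fertile library, at 0.119 CPM, lay below every Infertile one. The High-fertile and Infertile classes overlapped in TAP and PLA2G2F, with High-fertile libraries at up to 0.625 and 5.21 CPM.

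SAA2, a serum amyloid A acute-phase protein, was at 1.15, 0.596, 9.18, 0.642 and 3.50 CPM in the Infertile and 0, 0.255, 0.341, 0.213 and 0.0455 CPM in the Sub-fertile replicates (log2 fold change 4.10 ± 0.93). Its classes did not overlap, and the difference was 1.71 within the set of 8 and 5.91 within the set of 5. CLCA1, a secreted regulator of chloride channels found in goblet cells, was at 0.754, 14.6, 5.17, 2.45 and 2.66 CPM against 0.366, 0.857, 0.137, 0.0983 and 0.296 CPM (log2 fold change 3.87 ± 0.79). Only Infertile replicate 1 fell within the Sub-fertile range, and without Infertile replicate 2 the value was 2.97. SPTSSB, a subunit of the enzyme that begins sphingolipid synthesis, was at 3.73, 6.08, 1.34, 1.19 and 1.02 CPM against 0.522, 0.648, 0.182, 0.738 and 0.501 CPM (log2 fold change 2.36 ± 0.53), with no overlap. BHMT2, which remethylates homocysteine, was at 13.7, 16.3, 16.8, 8.80 and 10.04 CPM against 8.04, 6.95, 7.62, 8.23 and 5.90 CPM (log2 fold change 0.84 ± 0.25), again with no overlap and with a High-fertile mean of 6.79 CPM.

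**Figure D2:**
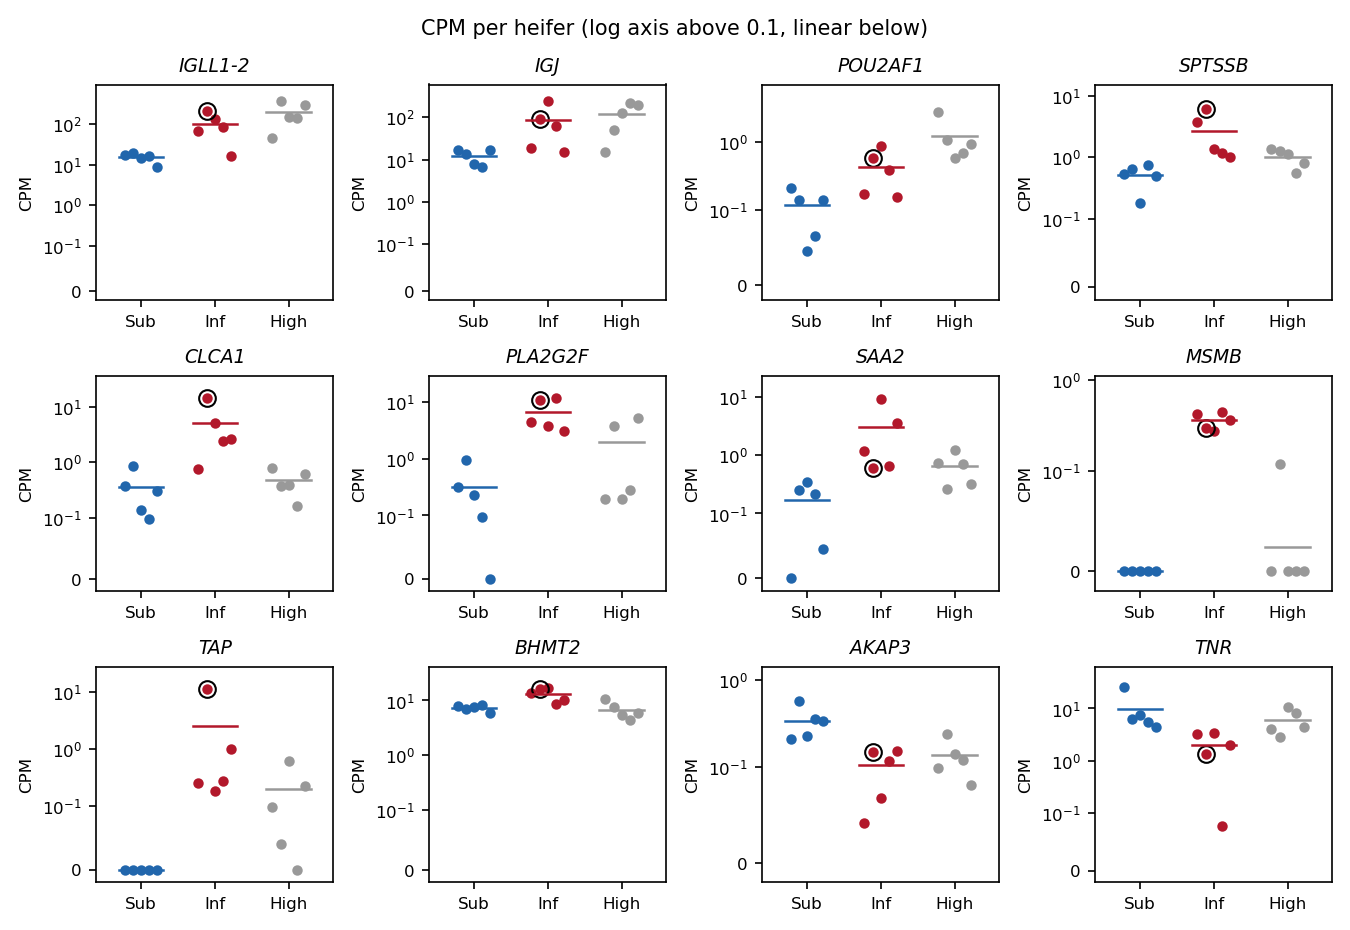
CPM of 12 genes in each heifer of the Sub-fertile, Infertile and High-fertile classes (log axis above 0.1 CPM, linear below), with 1 point per heifer, a line at the class mean and a ring around Infertile replicate 2. MSMB and TAP are at 0 in all 5 Sub-fertile libraries, IGLL1-2 and IGJ have High-fertile means above both other classes, and AKAP3 and TNR run the other way.

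Of the 24 symbol-bearing genes that ranked first by p, 23 were higher and 1 lower in the Infertile class. Their classes did not overlap in 12, which the choice by smallest p favours. Infertile replicate 2 was the highest of its class in 17. With any 1 library left out 20 of the 24 were at p under 0.05, which the same choice also favours. Besides those above they held CCKAR (the cholecystokinin receptor, log2 fold change 2.72), TENM2 (a teneurin of cell adhesion, 2.05), SLC6A19 (a carrier of neutral amino acids, 1.51), the potassium channel KCNK13 (1.96), SHISA6 (4.26), DPCD (0.62) and AP3B2 (1.07). SLC6A19 was at 0.880, 2.55, 0.884, 2.14 and 1.15 CPM against 0.470, 0.417, 0.637, 0.672 and 0.455 CPM, with no overlap. In a second kind of member the log2 fold change was far smaller without Infertile replicate 2. KRT15, a keratin of basal epithelium, was at 0.796, 53.9, 0.385, 2.10 and 3.58 CPM against 0.366, 0.672, 0.410, 0.410 and 0.501 CPM, with a log2 fold change of 4.68 ± 1.24, or 1.84 without Infertile replicate 2. CFB, complement factor B, was at 8.17, 260, 2.58, 13.3 and 9.04 CPM against 1.54, 4.56, 4.98, 7.52 and 2.30 CPM, and its 3.80 ± 1.08 became 0.97. For BPIFA2C, CXCL17, KIF12 and HJURP the values of 5.01, 2.92, 4.23 and 3.69 became 2.30, 0.97, 0.11 and 0.57 without that library. KRT15 and BPIFA2C were still at p under 0.05 without that library, and CFB, CXCL17, KIF12 and HJURP were not. KIF12 was at -0.59 within the set of 8 and 0.87 within the set of 5, neither of which holds that library.

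Fewer genes were lower than higher at p under 0.05 with all libraries (144 against 381), but not without Infertile replicate 2 (159 against 146). AKAP3, an anchoring protein of kinase A known from sperm, was at 0.0419, 0.149, 0.0680, 0.117 and 0.153 CPM in the Infertile and 0.209, 0.579, 0.228, 0.361 and 0.342 CPM in the Sub-fertile replicates (log2 fold change -1.68 ± 0.44). TNR, tenascin R of the extracellular matrix, was at 3.20, 1.36, 3.33, 0.0779 and 1.97 CPM against 25.5, 6.16, 7.40, 5.51 and 4.39 CPM (log2 fold change -2.30 ± 0.72). Both had classes that did not overlap, and both kept their sign within each set, at -1.85 and -1.78 for AKAP3 and -1.96 and -2.17 for TNR in the sets of 8 and 5. The next 8 genes on this side with a symbol, ordered by p and chosen after the values were seen, included a pair of related receptors. IL1R1, the interleukin 1 receptor, was at 37.9, 39.8, 57.2, 45.1 and 52.3 CPM against 75.7, 59.6, 51.9, 54.0 and 78.5 CPM (log2 fold change -0.46 ± 0.15). IL1RL1, the interleukin 33 receptor, was at 0.335, 1.96, 1.22, 0.662 and 0.843 CPM against 3.60, 1.27, 2.32, 2.44 and 2.87 CPM (log2 fold change -1.31 ± 0.46, and -1.71 without Infertile replicate 2). In IL1R1 2 Infertile libraries, and in IL1RL1 1, lay inside the Sub-fertile range.

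ASAH2, a ceramidase that breaks down ceramide at the cell surface, was at 1.68, 0.702, 1.54, 0.136 and 3.86 CPM in the Infertile and 4.10, 4.22, 4.78, 6.51 and 4.42 CPM in the Sub-fertile replicates (log2 fold change -1.61 ± 0.55), without overlap. SLFN12, of the schlafen family, was at 4.19, 5.08, 8.91, 6.31 and 8.56 CPM against 9.66, 10.4, 15.2, 10.5 and 9.79 CPM (log2 fold change -0.75 ± 0.26), also without overlap, and at -1.28 and -0.20 within the sets of 8 and 5. GCNT1, which builds the core 2 branch of mucin-type sugar chains, had a log2 fold change of -0.68 ± 0.23 and FREM2, a basement membrane protein, -1.70 ± 0.53. GABRB1, a subunit of the GABA receptor, and PPEF2, a calcium-binding phosphatase, were at -4.15 and -0.99, with PPEF2 at 0.01 and -1.41 and GABRB1 at -0.76 and -3.83 within the sets of 8 and 5. HTR1A, a serotonin receptor that DESeq2 passed, had no count in any Infertile library and 0.914, 0.394, 0, 0.967 and 0.273 CPM in the Sub-fertile replicates. Over the class its 123 Sub-fertile counts are at least 40.8-fold above a floor of 3 counts. Genes of known roles in implantation on this side were PTGS1, the constitutive prostaglandin synthase, at 3.54 to 5.06 against 4.80 to 6.39 CPM (log2 fold change -0.42 ± 0.17), and LIFR, the receptor of leukaemia inhibitory factor, at 212 to 545 against 399 to 660 CPM (-0.54 ± 0.22). CPA3, the carboxypeptidase of mast cells, was at 0.817 to 3.85 against 2.74 to 5.56 CPM (-0.83 ± 0.38). FOSL2, a subunit of the AP-1 factor, was at 256 to 408 against 370 to 587 CPM (-0.36 ± 0.16, and 0.06 and -0.52 within the sets of 8 and 5).

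The receptors that mark the stage of the endometrium and the genes that respond to progesterone overlapped widely between the classes, and 1 Infertile heifer lay outside all others in many of them. PGR, the progesterone receptor, was at 12.8, 51.5, 2.47, 10.1 and 1.89 CPM in the Infertile and 3.19, 3.34, 14.0, 6.72 and 2.48 CPM in the Sub-fertile replicates. The log2 fold change of 1.40 ± 0.75 became 0.19 without Infertile replicate 2, and it was 0.15 and -0.47 within the sets of 8 and 5. OXTR, the oxytocin receptor, was at 68.3, 176, 19.5, 3.45 and 1.43 CPM against 3.26, 21.0, 7.83, 4.28 and 3.12 CPM (log2 fold change 2.76 ± 1.06), with Infertile replicates 1 and 2 above every Sub-fertile library. Its value was 1.55 without Infertile replicate 2, 2.59 within the set of 8 and 0.21 within the set of 5. The list of steroid and oxytocin receptors as a whole had 4 of 10 members higher and a median of -0.06.

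In Infertile replicate 2 several transcripts were at far lower levels than in the other 9 heifers. HPGD, which inactivates prostaglandins, was at 382, 6.62, 549, 431 and 1050 CPM in the Infertile replicates and 368 to 724 CPM in the Sub-fertile class. DKK1, a secreted WNT inhibitor induced by progesterone, was at 19.7, 0.128, 18.7, 29.7 and 9.02 CPM against 7.55 to 18.3 CPM. TDGF1, an EGF-CFC growth factor coreceptor also called cripto, was at 1691, 1.57, 1482, 1160 and 942 CPM against 775 to 1312 CPM. In these 3 genes no other Infertile heifer lay below the Sub-fertile range. IGFBP1, a binding protein that marks conceptus elongation, was at 5.40, 0.255, 29.7, 134 and 190 CPM against 45.1 to 179 CPM, so that Infertile replicates 1, 2 and 3 lay below the Sub-fertile range. PTGS2, the inducible prostaglandin synthase, was at 12.3, 1.36, 44.9, 93.8 and 91.9 CPM against 31.8 to 93.9 CPM. SERPINA14, uterine milk protein of the glands, was at 2.05, 0.0851, 3.40, 11.4 and 13.0 CPM against 3.32 to 18.2 CPM. In PTGS2 and SERPINA14 Infertile replicate 1 also lay below the Sub-fertile range. FAM135B had 0 in Infertile replicate 2 against 12.3 to 37.7 CPM in the other 9. Between the classes the log2 fold changes were -0.20 ± 0.68 for HPGD, -0.52 ± 0.95 for IGFBP1 and -0.25 ± 0.76 for PTGS2, all within the spread between heifers. HPGD and PTGS2 turned to 0.11 and 0.06 without Infertile replicate 2. Within the set of 8 HPGD, IGFBP1 and PTGS2 were at -0.46, -1.20 and -0.62, and within the set of 5 at 0.52, 0.73 and 0.69. The list of progesterone-responsive and conceptus-elongation genes had 14 of 31 members higher, 2 of them at p under 0.05, 17 lower with 1 at p under 0.05, and a median of -0.03. Its mean log2 CPM was 3.98 in Infertile replicate 2 and 4.78 to 5.64 in the other 9 libraries. The summed level of the list was 7120 CPM in that library and 4400 to 11000 CPM in the other 9. Infertile replicate 2 was the lowest of its class in 14 of the 31 members and the highest in 9.

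**Figure D3:**
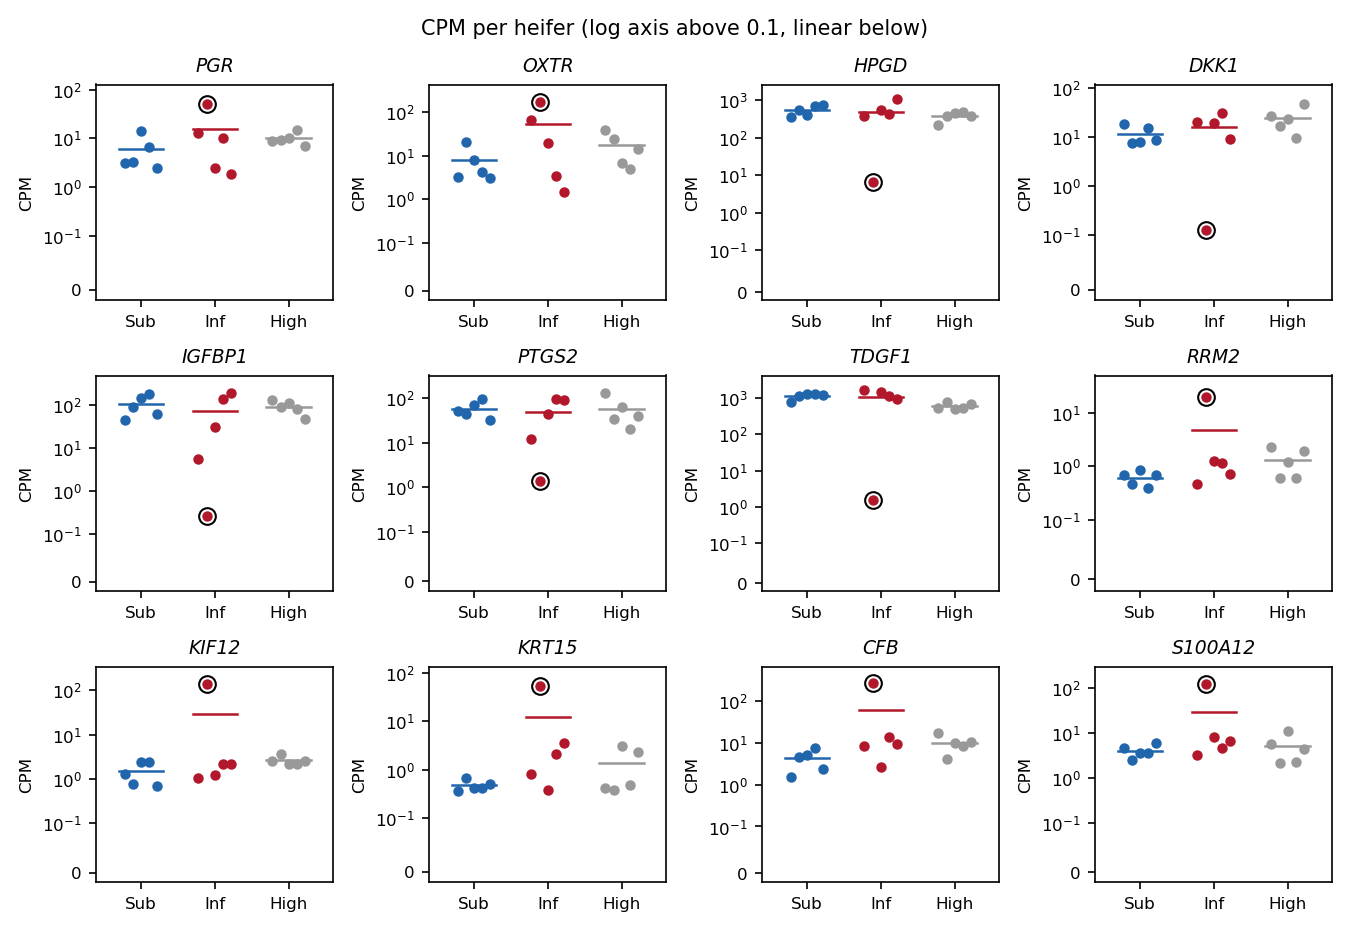
CPM of 12 genes in each heifer by class (log axis above 0.1 CPM, linear below), with 1 point per heifer, a line at the class mean and a ring around Infertile replicate 2. The ringed library is at 51.5 CPM of PGR and 176 CPM of OXTR and at 6.62 CPM of HPGD, 0.128 CPM of DKK1 and 1.57 CPM of TDGF1, while the other 4 Infertile heifers lie near the Sub-fertile ones in most panels.

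The counts and medians of several whole lists also differed with and without that library. In the cell cycle list 23 of 26 members were higher and 5 were at p under 0.05, with a median of 0.40, against 54.7% of genes higher and a median of 0.03 over all genes. RRM2, which makes deoxynucleotides, was at 0.461, 19.6, 1.27, 1.15 and 0.715 CPM in the Infertile and 0.393 to 0.842 CPM in the Sub-fertile replicates. The list mean was 4.45 log2 CPM in Infertile replicate 2 and 2.43 to 2.82 in the other 9 libraries, and without that library 4 of 26 members were higher and the median was -0.09. Neutrophil genes had 8 of 8 members higher, 4 at p under 0.05 (1.91% of all genes were higher at that p), and a median of 1.61, and their summed level was 206 CPM in Infertile replicate 2 and 9.43 to 36.9 CPM in the other 9. S100A12, a calcium-binding alarmin of neutrophils, was at 3.14, 121, 7.93, 4.67 and 6.46 CPM against 2.48 to 5.99 CPM, and S100A8 at 0.586, 26.2, 2.04, 1.05 and 1.89 CPM against 0.510 to 1.18 CPM. Without Infertile replicate 2 all 8 were still higher, with a median of 0.43 and 0 at p under 0.05. Within the set of 5 all 8 were higher with a median of 0.87, and within the set of 8 the median was -0.13.

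Mucosal antimicrobial genes, which guard epithelial surfaces, had 15 of 18 members higher and 9 of them at p under 0.05, against 54.7% and 1.91% of all genes, with a median of 1.29, also with TAP at its bound. The 3 lower members were the secreted proteins BPIFA1, BPIFB1 and WFDC2, at -0.91, -0.37 and -0.34. MUC1, a mucin of the luminal surface, was at 63.1, 171, 84.3, 81.7 and 92.5 CPM against 68.3, 57.4, 75.5, 67.8 and 48.4 CPM (log2 fold change 0.63 ± 0.27). Without Infertile replicate 2 the list median was 0.28, with 13 of 18 higher and 1 at p under 0.05, and within the sets of 8 and 5 it was 0.18 and 0.37. The summed level of the list was 1750 CPM in that library and 169 to 647 CPM in the other 9. Chemokines and interleukins had 23 of 29 members higher with a median of 0.41, and 0.09 without it. CXCL5, which attracts neutrophils, was at 1.80, 60.7, 0.453, 0.818 and 2.84 CPM against 0.721 to 1.46 CPM. SPP1, osteopontin, which binds integrins at the site of attachment, was at 4.90, 65.0, 33.2, 0.896 and 5.08 CPM against 0.731, 1.13, 1.27, 5.46 and 7.13 CPM, a log2 fold change of 2.79 ± 1.00 that was 1.80 without Infertile replicate 2, -0.21 within the set of 8 and 2.68 within the set of 5.

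The medians of connective tissue lists were also lower without that library. Collagens had 17 of 18 members higher with a median of 0.32 and -0.03 without Infertile replicate 2, stromal fibroblasts 16 of 20 with 0.21 and -0.15, and matrix remodelling 17 of 28 with 0.19 and -0.16. The numbers of higher members became 8, 5 and 7 without it. The collagen and stromal lists share COL1A1, COL1A2, COL3A1, COL6A1, COL6A2 and COL6A3. Within the set of 5 the 3 medians were -0.71, -0.64 and -0.40, and within the set of 8 they were 0.42, 0.43 and 0.19. LOXL1, which crosslinks elastin, was at 36.4, 124, 16.1, 42.2 and 13.7 CPM against 16.3 to 29.2 CPM, and IGFBP3, a stromal binding protein of insulin-like growth factors, at 140, 236, 70.2, 47.7 and 49.1 CPM against 47.6 to 71.2 CPM. Their log2 fold changes of 1.01 ± 0.47 and 0.87 ± 0.37 were 0.22 and 0.36 without Infertile replicate 2, 0.66 and 0.90 within the set of 8 and -0.55 and -0.14 within the set of 5. Macrophage and complement lists had medians of 0.25 and 0.20 with all libraries and of 0.05 and -0.02 without it. Within the classes compared, Infertile replicate 2 was the only library in the set of 2, so set and heifer cannot be told apart there. The other library of that set, High-fertile replicate 1, had list means of 2.74 (cell cycle), 0.778 (neutrophils) and 2.01 log2 CPM (mucosal antimicrobial). Those of Infertile replicate 2 were 4.45, 3.65 and 4.51. Progesterone-responsive genes and collagens were at 5.46 and 8.87 in the High-fertile and 3.98 and 9.43 in the Infertile library. In the oxidative phosphorylation list both lay above all other libraries. The part of the set in this was not tested.

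**Figure D4:**
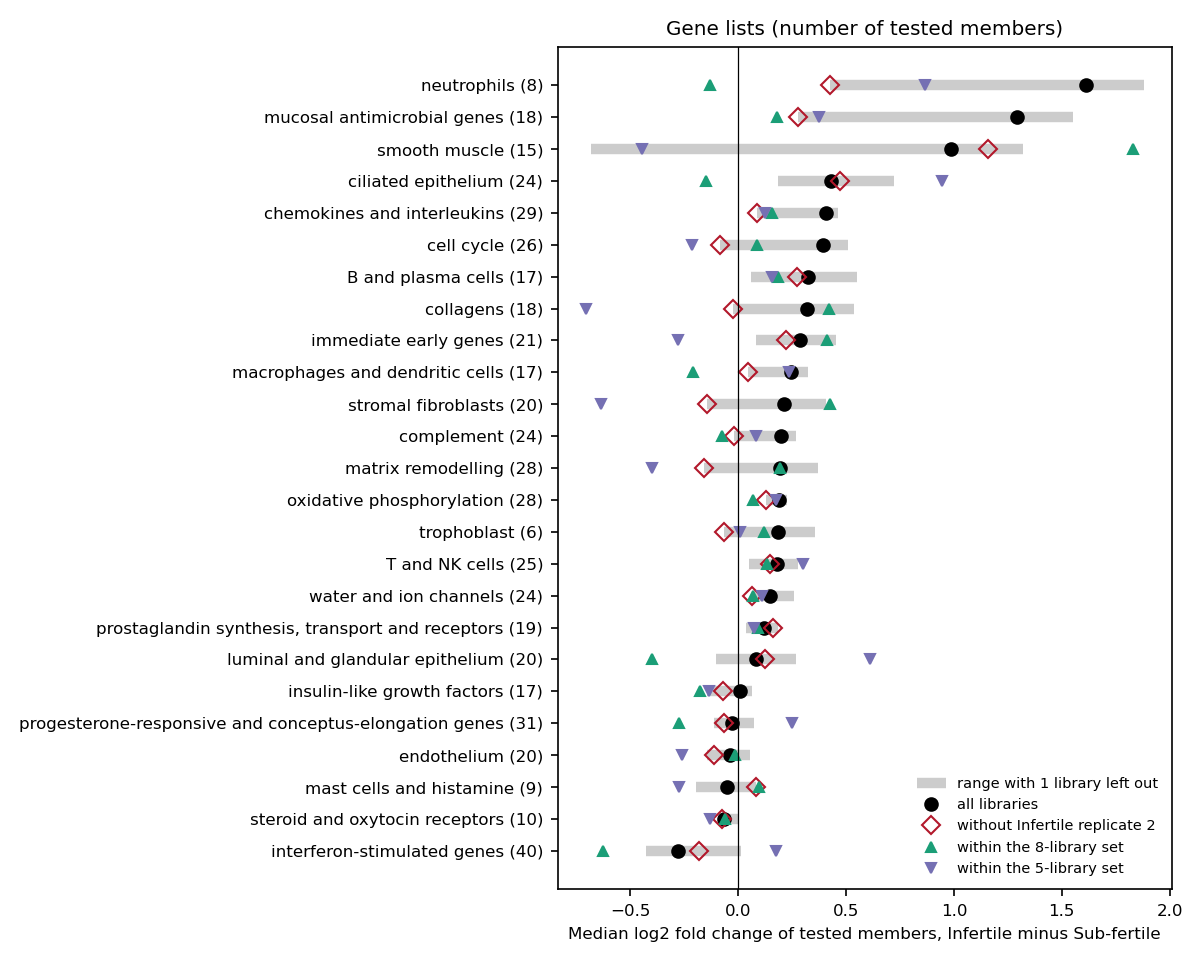
Median log2 fold change (Infertile minus Sub-fertile) of the tested members of 25 gene lists, with all libraries (black), without Infertile replicate 2 (open diamonds), within the sets of 8 and 5 libraries (triangles), and the range with 1 library left out (grey). Neutrophil and mucosal antimicrobial medians go from 1.61 and 1.29 to 0.43 and 0.28 without Infertile replicate 2, and the smooth muscle range runs from -0.68 to 1.32.

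Smooth muscle and interferon-stimulated genes each turned on a single other heifer. All 15 smooth muscle genes were higher in the Infertile class, with a median of 0.99. MYH11, the smooth muscle myosin heavy chain, was at 6356, 603, 911, 105 and 131 CPM in the Infertile and 90.0, 1608, 240, 1690 and 575 CPM in the Sub-fertile replicates. LMOD1, which nucleates actin in smooth muscle, was at 521 CPM in Infertile replicate 1 and 25.6 to 137 CPM in the other 9. Without Infertile replicate 1 the list median was -0.68, MYH11 went from 0.95 ± 1.08 to -0.94 and LMOD1 from 1.17 ± 0.77 to -0.41. Within the sets of 8 and 5 MYH11 was at 1.76 and -0.53 and LMOD1 at 1.67 and -0.20. The median was 1.83 within the set of 8, which holds that heifer, and -0.45 within the set of 5, which does not. With the list at 10.5 log2 CPM in that heifer and 5.73 to 8.62 in the other 9, the classes otherwise overlapped throughout.

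Of 40 interferon-stimulated genes, 39 were at lower values in the Infertile class and 0 were at p under 0.05, with a median of -0.28. ISG15, which is conjugated to other proteins much as ubiquitin is, was at 10.5, 6.02, 5.57, 24.8 and 15.9 CPM in the Infertile and 4.88, 9.08, 13.5, 93.2 and 7.04 CPM in the Sub-fertile replicates. MX1, an antiviral GTPase, was at 103, 145, 84.9, 228 and 264 CPM against 80.3, 183, 177, 564 and 179 CPM. In both genes Sub-fertile replicate 4 was the highest of the 10 and the remaining heifers of the classes overlapped. Without it the list median was 0.015, ISG15 went from -1.03 ± 0.88 to 0.53 and MX1 from -0.52 ± 0.53 to 0.08. Within the sets of 8 and 5 ISG15 was at -1.60 and 0.59 and MX1 at -1.16 and 0.21. The list median was -0.63 within the set of 8 and 0.18 within the set of 5. OAS1X, an oligoadenylate synthetase whose reads may be shared with its copies, was at 4.52 to 27.3 against 21.5 to 51.9 CPM (log2 fold change -0.89 ± 0.52). The receptor genes IFNAR1 and IFNAR2 were present in each of the 10 libraries, at 76.8 to 126 and 31.5 to 54.0 CPM.

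Genes of ciliated cells and of oxidative phosphorylation were at higher values throughout their lists. All 24 tested ciliated genes were higher, with a median of 0.43, and 0 were at p under 0.05. FOXJ1, the regulator of motile cilia, was at 38.0, 101, 44.9, 85.0 and 66.6 CPM against 41.8, 16.6, 108, 30.0 and 28.6 CPM (log2 fold change 0.57 ± 0.44, and -0.16 and 0.93 within the sets of 8 and 5), and TEKT2, a protein of ciliary microtubules, at 3.90 to 13.4 against 2.10 to 8.42 CPM (0.88 ± 0.41). Their classes overlapped. The list median was 0.18 to 0.72 with any 1 library left out, and it was -0.15 within the set of 8 and 0.94 within the set of 5. IFT43, a gene of intraflagellar transport outside this list and chosen after its values were seen, was at 14.5, 19.4, 13.5, 15.5 and 13.9 CPM against 11.7, 8.71, 12.8, 11.9 and 10.04 CPM (log2 fold change 0.48 ± 0.16), without overlap.

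All 28 nuclear-encoded oxidative phosphorylation genes, subunits of the respiratory chain and the ATP synthase, were higher in the Infertile class, and 1 was at p under 0.05. The median was 0.19, and 0.13 to 0.23 with any 1 library left out. The mean of the list in log2 CPM was 6.03, 6.16, 5.94, 5.87 and 5.96 in the Infertile and 5.72, 5.75, 5.86, 5.92 and 5.77 in the Sub-fertile replicates, so that Sub-fertile replicate 4 alone passed an Infertile library. Within the sets of 8 and 5 the medians were 0.07 and 0.18. COX5A, a subunit of cytochrome c oxidase, was at 53.5, 71.9, 55.5, 52.1 and 56.9 CPM against 48.6, 43.0, 53.5, 48.0 and 47.6 CPM (log2 fold change 0.27 ± 0.11). The ATP synthase subunits ATP5G3 and ATP5J2, which were not in the list and whose values were known when they were chosen, had classes that did not overlap. ATP5G3 was at 97.9, 91.3, 87.0, 82.5 and 88.4 CPM against 76.8, 75.5, 74.4, 80.9 and 73.8 CPM (log2 fold change 0.23 ± 0.10), and ATP5J2 at 41.5 to 45.8 against 38.7 to 39.5 CPM (0.16 ± 0.09). The High-fertile means of these subunits were 77.0 and 38.5 CPM. Members of one list are not independent of each other, and none of the list counts was tested. Lists also share members, among them S100A8 and S100A9 (neutrophils and mucosal antimicrobial) and C1QA, C1QB and C1QC (macrophages and complement).

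**Figure D5:**
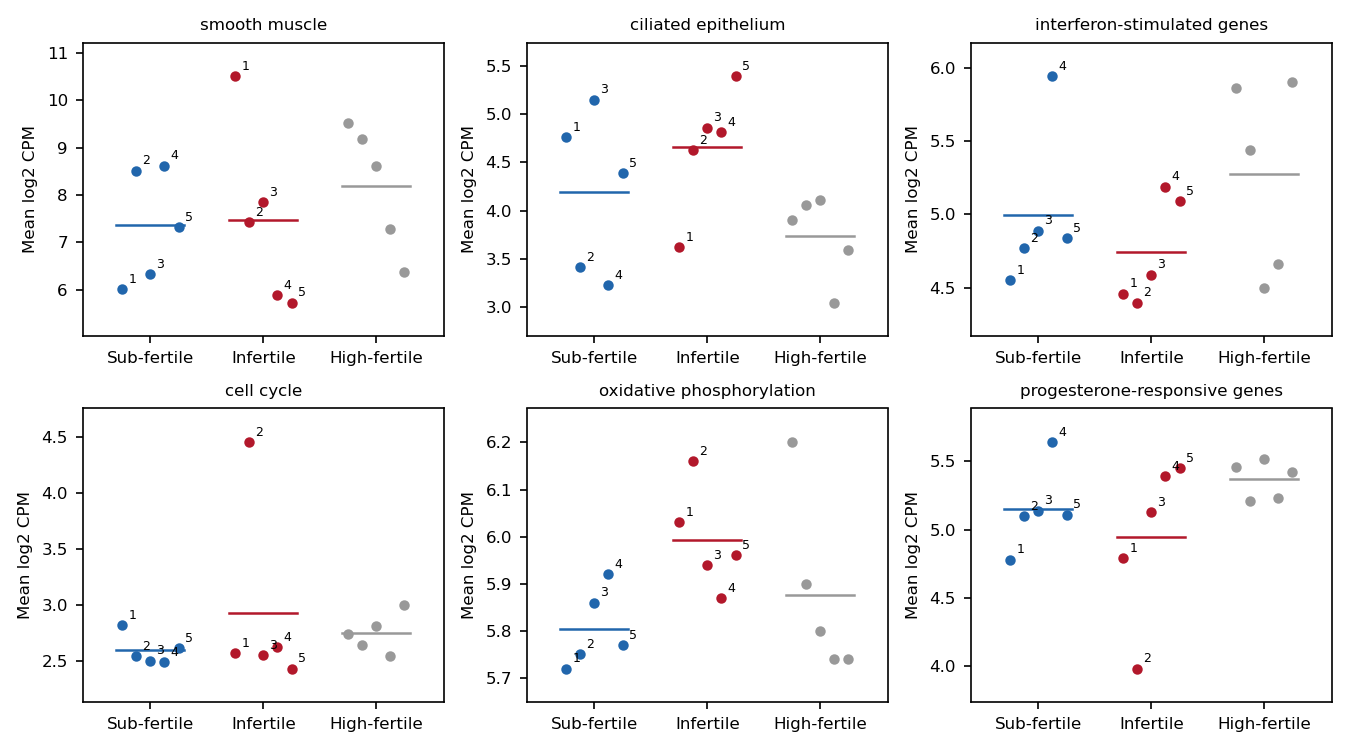
Mean log2 CPM of the tested members of 6 gene lists in each heifer by class, with 1 point per heifer, replicate numbers beside the Infertile and Sub-fertile points and a line at the class mean. Infertile replicate 1 is at the top of smooth muscle, Sub-fertile replicate 4 at the top of interferon-stimulated genes (5.94) and Infertile replicate 2 at the top of the cell cycle (4.45) and the bottom of the progesterone-responsive genes (3.98).

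Of the other gene lists, 14 that are not described singly had medians from -0.01 to 0.13. Insulin-like growth factor genes had 9 of 17 higher with a median of 0.01, which was -0.002 with scaling by library size alone and -0.07 without Infertile replicate 2. Epithelial genes had 14 of 20 higher with a median of 0.08, which was -0.40 within the set of 8 and 0.61 within the set of 5. Immediate early genes, the first to respond to a stimulus, had 17 of 21 higher with a median of 0.29, which was 0.41 within the set of 8 and -0.28 within the set of 5. Genes of T and NK cells had 19 of 25 higher with a median of 0.18, and genes of endothelium and mast cells 9 of 20 and 4 of 9 with medians of -0.04 and -0.05. Prostaglandin genes had 12 of 19 higher with a median of 0.12, and 1 higher and 1 lower member were at p under 0.05. The lower was PTGS1, given above. The higher was PTGES, with a log2 fold change of 1.56, which was 0.37 and not at p under 0.05 without Infertile replicate 2. Of 24 water and ion channel genes 15 were higher and 5 of them at p under 0.05, against 54.7% and 1.91% of all genes, among them AQP3, a channel for water and glycerol, and the sodium channel subunit SCNN1G, with log2 fold changes of 2.50 and 2.38. Without Infertile replicate 2 they were at 0.53 and 1.14, and the list median went from 0.15 to 0.06. Over the 39 lists 760 different genes were tested, of which 48 (6.32%) were at p under 0.05, 43 higher and 5 lower, against 2.63% of all genes tested. In 39 of the 43 higher genes Infertile replicate 2 was the highest of its class, and 6 of the 48 were still at p under 0.05 with the same sign without it. It was the highest of the 10 libraries in the mean of 16 lists and the lowest in 6. ELOVL7, an elongase of fatty acids in the lipid list and one of the genes still at p under 0.05 without Infertile replicate 2, was at 20.4, 33.9, 21.1, 12.9 and 15.6 CPM against 13.4, 11.7, 11.4, 10.5 and 15.8 CPM (log2 fold change 0.73 ± 0.24).

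The Infertile libraries differed more among themselves than the Sub-fertile libraries. By pseudogenes and ribosomal RNA genes the Infertile class had libraries in every set, and the Sub-fertile class had none in the set of 2. The part of the sets in this spread was not tested. The median over genes of the SD within a class was 0.471 log2 CPM in the Infertile, 0.38 in the Sub-fertile and 0.27 in the High-fertile class, and 64% of genes had the larger SD in the Infertile of the first pair. Without Infertile replicate 2 the Infertile median was 0.397 and the share 54.8%. That library had a median rank correlation of 0.922 with the other 9, against 0.957 to 0.972 for the others. Of 16692 genes with a mean of at least 1 CPM it stood apart from its class in 774 (4.64%), 245 above and 529 below. Sub-fertile replicate 1 did so in 204, Sub-fertile replicates 3 and 4 in 171 and 170, Infertile replicate 1 in 158, and the other 5 libraries in 31 to 89. Chance meets this rule, by any library of a class, in about 1 in 20 groups of unselected values. The counts were not tested against that rate.

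Some genes were named for the gap between a single library and the rest of its class. SYT4, a vesicle protein of secretory cells, was at 0.262 CPM in Sub-fertile replicate 4 and at 223 to 383 CPM in the other Sub-fertile and 114 to 315 CPM in the Infertile heifers. In Infertile replicate 1 KRT75, a keratin, was at 61.2 CPM and MYL4, a myosin light chain, at 14.5 CPM, against at most 0.997 and 0.957 CPM in the other Infertile heifers. Infertile replicate 5 held 0.511 CPM of the potassium channel KCNH7, against 7.40 to 14.6 CPM in the rest of its class. Among genes of the major histocompatibility complex, whose alleles differ between animals, BOLA-DQA1 was at 0.273 CPM in Infertile replicate 4 and 2.12 to 9.59 CPM in the rest of its class, and BOLA-DQA2 at 0.0683 CPM in Sub-fertile replicate 5 and 1.27 to 22.4 CPM in the other 4. In Sub-fertile replicate 3 CLDN11, a tight junction claudin, was at 0.137 CPM against 3.84 to 22.6 CPM in the other 4.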

How the data were processed

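Stranded TruSeq mRNA libraries of RNeasy-purified endometrial RNA were sequenced, per the labels' protocols. The deposited table gives a whole-number read count and an FPKM value per gene and heifer. The submitters' processing notes list FastQC, Subread, featureCounts, edgeR and the UMD3.1 build; no source used here gives their versions, the strand setting or the treatment of multiply mapped reads. The deposited counts were tested, and the deposited FPKM values were not used. Of 32671 entries, 4555 were at 0 in all libraries and 27 had names that read as calendar dates.

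The analysis used edgeR 4.0.16 under R 4.3.3: filterByExpr by class (19962 genes), TMM scaling, and 1 quasi-likelihood fit with robust estimation over all 15 libraries (12 residual degrees of freedom), from which the Infertile minus Sub-fertile contrast was tested, two-sided. P values were adjusted by Benjamini-Hochberg over all genes tested, with a threshold of 0.05, and each p printed is from this fit unless another tool is named. SE is the log2 fold change divided by the square root of the F statistic. A count of 0 allows up to 3 counts, for counting error only. A library stood apart in a gene where its gap to the nearest of its class exceeded 0.71 of the class range on log2 CPM (prior count 2). The tests were checked on simulated data.

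The rule named the 24 symbol-bearing genes that ranked first by p, the 2 members of each of 39 lists with the smallest p, a fixed set of receptor, prostaglandin, interferon and marker genes, and per library the 3 genes in which it stood farthest from its class. A gene that the rule named is not reported here. The members and lists were chosen with earlier results of these data known. Alternatives were other scalings, filters, DESeq2 1.42.0, limma-voom (limma 3.58.1) with and without sample quality weights, the likelihood ratio test, only the 10 libraries, the library set as covariate (10 residual degrees of freedom) or subset, and each library left out. The fit within the set of 5 was added after seeing the data. Lists were described by counts and medians, with no test. Symbols are the table's, of which 20070 matched the RefSeq gene table. No coordinates or sequences are given.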

Additional observations from a re-analysis of the deposited data

Results flagged for a closer look

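In 17 of 196 class values examined (98 genes and lists in 2 classes) 1 heifer lay far from the other 4 of its class. Chance meets this rule in about 1 in 20 groups of unselected values. The 17 cannot be set against that rate, because some genes were named for a small p or for 1 heifer standing apart, as TNR and CRHR1 were. The 98 also did not cover all genes described above. Infertile replicate 2 was the library in 9 of the 17. It was high in KIF12 at 137 CPM, HJURP (a chaperone of centromeric histone) at 8.59 CPM, RRM2 at 19.6 CPM, S100A12 at 121 CPM, CRHR1 (a receptor of corticotropin-releasing hormone) at 45.0 CPM, COX5A at 71.9 CPM and the cell cycle list at a mean of 4.45 log2 CPM. It was low in HPGD at 6.62 CPM and DKK1 at 0.128 CPM. Its library also lay in the set of 2 by pseudogene and ribosomal RNA counts, with RN18S1 at 0, and the part of that in these values was not tested.

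The other values were spread over 6 heifers. Infertile replicate 4 was low in TNR at 0.0779 CPM and in GCNT1 at 35.5 CPM and high in the insulin-like growth factor list at a mean of 6.09 log2 CPM, and Infertile replicate 5 was low in FREM2 at 1.51 CPM. Sub-fertile replicate 1 was high in LOC100300806 at 1.67 CPM, Sub-fertile replicate 3 in SLFN12 at 15.2 CPM and Sub-fertile replicate 4 in the interferon-stimulated list at 5.94 log2 CPM. Sub-fertile replicate 5 had no count of CRHR1.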

How the results depend on the processing

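The count of 0 genes past the adjusted threshold was 11 with DESeq2, 8 with the likelihood ratio test and 1 with limma-voom, and 0 with every other setting, each left-out library included. Genes at an unadjusted p under 0.05 (525) numbered 871 without a filter and 325 with a stricter one. A fit of only the 10 libraries gave 350, of which 245 were higher and 105 lower. There were 320 with limma-voom and 929 with its sample weights. The count was 349 with the library set as covariate, 949 and 1951 within the sets of 8 and 5, and 301 without the set of 2. It was 305 to 1001 with 1 library left out. The share of higher genes among the 525, 72.6%, was 55.9% with the set as covariate. Genes without overlap (41) numbered 26 with the stricter filter and 60 to 151 with 1 library left out, where fewer libraries have to separate. The median SD was 0.421 and 0.339 in the Infertile and Sub-fertile classes with the stricter filter, and 0.397 to 0.484 and 0.349 to 0.398 with 1 library left out.

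Of 1810 values of 73 genes under the alternatives 1760 kept their sign and side of the adjusted threshold, and 19 passed it. No gene was past it in the main fit, so none could drop back. Keeping its side therefore says little about how stable a difference was. Of the 525 genes first listed by unadjusted p, 33.5% stayed on that list without Infertile replicate 2. The other 31 values turned in sign, of which 7 were with 1 library left out. Within the set of 8 KIF12 was at -0.59, S100A8 at -0.00199, CRHR1 at -1.20, SPP1 at -0.21, PTGES at -0.27, FOXJ1 at -0.16, FOSL2 at 0.0553 and PPEF2 at 0.0127. Within the set of 5 PGR was at -0.47, IGFBP1 at 0.73, HPGD at 0.52, PTGS2 at 0.69, MYH11 at -0.53, LMOD1 at -0.20, ISG15 at 0.59, MX1 at 0.21, IGFBP3 at -0.14 and LOXL1 at -0.55. Without the set of 2 CRHR1 was at -0.55, HPGD at 0.12 and PTGS2 at 0.068. DKK1 was at -0.67 with limma-voom, and MYH11 at -0.60 and ISG15 at 0.21 with sample weights. With 1 library left out CRHR1 ranged from -0.56 to 5.33, HPGD from -0.71 to 0.11, PTGS2 from -0.62 to 0.0597, MYH11 from -0.94 to 1.35, LMOD1 from -0.41 to 1.66, ISG15 from -1.43 to 0.53 and MX1 from -0.77 to 0.0826. The causes were not tested. No paired analysis was possible because the labels give no number shared between heifers of the classes.

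With 5 heifers a class, a single library moved several lists, the classes are known only from labels, and the library sets have no stated origin. Genes under about 1 CPM, among them MSMB, AKAP3 and HTR1A, rest on few counts.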
